A study of Saccharomyces cerevisiae with 28 samples.

Results

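Of the 40890 guide RNAs of a yeast CRISPR library, 18 were paired with snoRNAs and other structural RNAs. Their abundance was compared between cells sorted for a high signal of secreted α-amylase and the remaining cells, called the low fraction. The 18 guides were taken from the lists of the early and the main activation screens, which pair 2278 guides with a feature, as those whose feature is named neither as an open reading frame nor as a SUT or CUT, the unannotated transcripts of the yeast genome. They addressed 16 RNA genes. A total of 6 guides were paired with 5 H/ACA snoRNAs, 6 with 5 box C/D snoRNAs, 4 with 4 tRNAs, 1 with the U6 spliceosomal RNA (snR6) and 1 with SCR1, the RNA of the signal recognition particle. The early list alone held 13 of the guides, the main list alone held 3 (snR3, snR81 guide A and tK(CUU)K), and both lists held 2 (snR81 guide B and snR63 guide A).

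All libraries came from the industrial diploid Saccharomyces cerevisiae strain Ethanol Red with an integrated α-amylase gene under different promoters. In the activation libraries the guide brought the VPR activator to its site, as part of a fusion with dCas9, the form of Cas9 that still binds but no longer cuts. In the repression libraries dCas9 was fused to the Mxi1 repressor. In both, the dCas9 fusion was made continuously from the TEF1 promoter and the guide was induced with anhydrotetracycline. Cells were enclosed in droplets with a substrate that becomes fluorescent when amylase cuts it. A small share of droplets, those of highest fluorescence, was sorted into the high fraction. All other droplets made up the low fraction, so it is not a selection of low secretors. The guides were sequenced from both fractions. There were 2 high and 2 low libraries in the early activation screen, 8 high and 8 low libraries in the main activation screens (rounds 2 to 5 with 2 replicates each) and 4 high and 4 low libraries in the main repression screens (rounds 1 and 2 with 2 replicates each). The labels do not say that the replicates were grown as separate cultures, so the p-values may measure technical spread only. The level of the targeted RNAs was not measured. The sorted cells were grown overnight on plates before their guides were amplified and sequenced. A count therefore also carries growth and amplification, not only how often a guide was present among the sorted cells.

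snoRNAs are small nucleolar RNAs that pair with ribosomal RNA and mark the bases to be modified. Box C/D snoRNAs direct the methylation of a ribose and H/ACA snoRNAs the conversion of uridine to pseudouridine. The U6 RNA sits in the catalytic centre of the spliceosome, SCR1 is the scaffold of the particle that brings nascent secretory proteins to the ER, and tRNAs carry amino acids to the ribosome. RNA polymerase II transcribes these snoRNAs, while RNA polymerase III transcribes tRNAs, U6 and SCR1.

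The sequences of the guides on which the results turn are given as the guide list of the study holds them, with runs of 4 or more T in capitals. Such runs act as a stop signal for RNA polymerase III. tR(UCU)G2 is the guide that was missing from every high fraction.
tR(UCU)G2: ggtacctcttctaagctaag
The next are the guides called higher in the high fraction of the repression screens.
snR33: gtaaaaaagatgcgcaagcc
snR66: gacTTTTTattagatcagtt
snR3: ggataaggtaactgcgtatg
snR11: atcTTTTcttgtccTTTTTT
The last are a guide called higher in the activation screens and the pairs of guides with the same target.
snR8: cggaaatctctgcgcaatgg
snR63 guide A: ggaggatataacacaaacag
snR63 guide B: gtacaattagagTTTTTctt
snR81 guide A: gccctaggaacgccattatg
snR81 guide B: gctccgttaacgaagagaat

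A run of 4 or more T was present in 4 of the 18 guides (22.2%), namely those of snR11, snR66, snR78 and snR63 guide B, and in 11.3% of all 40890 guides. The GC content of the 18 guides ranged from 25% to 55% with a median of 40%, which is also the median of all guides. Any pair of the 18 guides differed at 8 or more of its positions. Where each guide binds was not analysed here. Candidate guides of the library were sought in a window that begins 400 bp before each transcription start and ends 100 bp after it. Where at least 6 were available, the study chose from a narrower stretch before the start. The same window was set here on the annotated start of each RNA gene. A gene in it need not lie where a guide was chosen. In the R64 annotation, 12 of the 16 targets were matched by name and the 4 tRNA genes were not. Of the 12 targets, 6 had another gene overlapping this window. The window of snR8 (chrXV:832332-832521, plus strand) held the start of FSF1, a gene on the opposite strand that begins 290 bp away. For SCR1 (chrV:441987-442508, plus strand), the start of YER137C lay 168 bp away on the opposite strand, and for snR33 (chrIII:142364-142546, minus strand), that of the tRNA gene SUF16 lay 225 bp away on the same strand. The windows of snR11 (chrXIII:652275-652532, plus strand), snR41 (chrXVI:719148-719242, minus strand) and snR66 (chrXIV:586090-586175, plus strand) reached into the upstream genes RPL36A, ASR1 and NME1. No other gene reached into the window of snR63 (chrIV:323217-323471, minus strand), snR3 (chrX:663749-663942, plus strand), snR81 (chrXV:234346-234546, plus strand), snR78 (chrXIII:297278-297364, plus strand), snR87 (chrXI:431030-431138, minus strand) or snR6 (chrXII:366235-366346, plus strand).

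Total counts ranged from 205969 to 2382465 reads in high and from 50433 to 2464879 in low libraries of the main activation screens, from 1842307 to 3346567 in high and from 1603093 to 3359719 in low libraries of the repression screens, and from 1137532 to 1880556 in high and from 809772 to 1883257 in low libraries of the early screen. A guide's abundance is its count divided by the total count of the library, in counts per 1000000 (CPM). Shares of single libraries carry 95% Wilson intervals, and these hold the counting error alone, because amplified reads with no molecular tags are not separate molecules. Fold changes are log2 values of high over low from edgeR, which scales the libraries with RLE factors. These factors rest on guides with reads in every library of a screen (389 in the main activation screens, 2957 under repression) and were smaller in the high fraction. Under repression they were 0.0349 in the high library of round 2 replicate 2, 1.39 to 1.46 in the other 3 high libraries and 1.70 to 1.82 in the low libraries. In the main activation screens they were 0.0304 to 1.08 in the high and 3.12 to 10.6 in the low libraries. Guides were called enriched or depleted in the main screens at a log2 fold change beyond 3 or -3 and an FDR, the adjusted p of Benjamini and Hochberg over all guides tested, under 0.05.

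Under repression, 13 to 16 of the 18 guides had reads in a high library and all 18 in each of the 4 low libraries, beside 15.6% to 24.3% of all guides in the high and 44.6% to 50.6% in the low libraries. In the main activation screens, 7 to 16 of the 18 had reads in a high library and 11 to 17 in a low library, beside 8.77% to 14.6% of all guides in the high and 12.5% to 27.8% in the low libraries. The larger share under repression is thus found over all guides of the library as well. Since the activation screens supplied the lists, these shares do not describe an unselected group. Together the 18 guides took 0.232% to 0.383% of the reads in the high and 0.223% to 0.269% in the low repression libraries.

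In the repression screens, the guide of an arginine tRNA gene was lost from the high fraction, and 4 snoRNA guides were called higher in it. The rule that chose the guides did not use repression values, but the set was chosen with earlier results of these data known. All 18 guides were tested. The 4 enriched guides were those of snR3, snR11, snR33 and snR66, against 5.37% of the 13403 guides tested, and the depleted guide was that of tR(UCU)G2, against 13.5% of the guides tested. The other 13 guides had log2 fold changes of -1.30 to 3.44 and were not called. The median of the 18 log2 fold changes was 0.80, beside a median of 0.01 over all guides tested.

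tR(UCU)G2 encodes an arginine tRNA that reads the AGA codon. In the order of round 1 replicates 1 and 2 and round 2 replicates 1 and 2, which is kept for all repression values here, its guide had 0, 0, 0 and 0 reads in the high libraries and 70, 14, 117 and 72 reads in the low libraries. In CPM this was 0 in each high library, against 20.8, 5.69, 73.0 and 26.7 CPM in the low libraries, so the groups did not overlap. A count of 0 was bounded at 3 reads over the 4 high libraries. The guide's share of reads was then at least 99.6-fold lower in the high fraction. Without round 2 replicate 1, the sort replicate that moved this limit most, it was at least 56.4-fold lower. Reads are not separate cells, so these limits hold for reads and not for the number of sorted cells. The fitted log2 fold change was -9.10 (SE 2.28, FDR = 0.000816 by the likelihood ratio test of edgeR), and the guide was also called depleted under each of the 15 alternative settings run. Among all guides tested, 20.3% had every high library below every low library.

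The same guide was missing from the high fraction under activation as well. It had 0 reads in the 2 high libraries of the early screen, against 168 and 44 reads in the low libraries, and 0 reads in all 8 high libraries of the main screens, against 0 to 2 reads in the low libraries. The early values helped to choose the guide and are a description. There its share of reads was at least 79.2-fold lower in the high fraction. This limit was 20.6-fold without replicate 1 and 55.9-fold without replicate 2. The reads of the main activation screens were too few to show a difference. Over the main screens, without the early libraries, the guide had no read in any of 12 high libraries and had reads in 6 of 12 low libraries. Of all 2518 guides with reads in exactly 6 of these low libraries, 438 (17.4%) had no read in any of the high libraries, and so did 30.3% of those with reads in at least 1 low library.

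The snR33 guide, paired with an H/ACA snoRNA that modifies the large ribosomal subunit, had 115, 196, 315 and 348 CPM in the high repression libraries and 109.8, 122, 90.5 and 91.7 CPM in the low libraries. By share, 4 of 4 sort replicates were higher in the high fraction, a sort replicate being the high and the low library labelled with the same round and replicate number, and the ranges overlapped only by round 1 replicate 1. The snR66 guide, paired with a box C/D snoRNA of the large subunit, had 294, 353, 276 and 1036 CPM in the high libraries and 258, 298, 235 and 307 CPM in the low libraries. It was also higher in 4 of 4 sort replicates, in 3 of them by less than the range of the low libraries. Of all guides tested, 0.612% were higher in the high fraction in every sort replicate.

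The snR3 guide, paired with an H/ACA snoRNA, had 39.7, 5.64, 1.09 and 1295 CPM in the high repression libraries and 71.1, 57.3, 32.4 and 3.71 CPM in the low libraries. In 3 of 4 sort replicates the high fraction had less of it, and 1 high library, round 2 replicate 2, held most of its reads. The guide of snR11, another H/ACA snoRNA, had 35.0, 96.0, 269 and 848 CPM in the high libraries and 75.6, 136, 135 and 105 CPM in the low libraries. It was higher in the high fraction in both replicates of round 2 and lower in both replicates of round 1.

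The fitted log2 fold changes in edgeR's likelihood ratio test were 8.58 for snR3 (SE 2.84, FDR = 0.0187), 6.53 for snR11 (SE 2.28, FDR = 0.0284), 5.56 for snR66 (SE 2.10, FDR = 0.0451) and 5.43 for snR33 (SE 1.99, FDR = 0.0384). The RLE factor of the high library of round 2 replicate 2 was far below the others, and all 4 calls were lost without this sort replicate and with scaling by library size. Without the sort replicate the values were -1.55 for snR3, 0.46 for snR11, 0.47 for snR66 and 1.21 for snR33. With scaling by library size alone they were 2.97, 1.42, 0.79 and 1.19. With the round and replicate number as a block they were -1.41, 1.12, 1.45 and 2.11, and none of the 4 was called. Without any single one of the other 3 sort replicates, the guides of snR3 and snR11 were still called. Those of snR33 and snR66 were not, at log2 fold changes of 5.70 to 5.98 for snR33 (FDR = 0.0564 to 0.0623 in edgeR) and 5.80 to 6.06 for snR66 (FDR = 0.0632 to 0.0729 in edgeR). Over all guides tested library size alone gave 14 enriched and 1981 depleted guides, where the RLE factors gave 720 and 1812.

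Among the other H/ACA guides under repression, that of snR8, which acts on the large subunit, had 509, 186, 0 and 0.372 CPM in the high libraries and 82.7, 99.2, 77.4 and 91.7 CPM in the low libraries. It was high in round 1 and almost absent from the high fraction of round 2. Both guides of snR81, an H/ACA snoRNA that modifies ribosomal RNA and the U2 spliceosomal RNA, had reads in 3 high libraries and none in round 2 replicate 2. Guide A had 146, 206, 210.1 and 0 CPM in the high libraries and 147, 70.3, 64.9 and 67.6 CPM in the low libraries, and guide B had 179.6, 189, 22.3 and 0 CPM in the high libraries and 170.0, 40.6, 35.6 and 71.3 CPM in the low libraries.

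The box C/D guides of snR41 and snR87, which act on the small subunit, and of snR78, which acts on the large subunit, were not called under repression. The snR41 guide had 0, 77.8, 0 and 0.372 CPM in the high libraries and 127, 41.5, 89.8 and 23.8 CPM in the low libraries. The snR78 guide had 131, 0, 145 and 0.372 CPM in the high libraries and 213, 316, 143 and 175 CPM in the low libraries. Each was thus near 0 in at least 2 high libraries and present in every low library. The snR87 guide had 301, 0.941, 198 and 78.4 CPM in the high libraries and 165, 53.7, 81.7 and 104 CPM in the low libraries, and 2 of 4 sort replicates had more of it in the high fraction. The log2 fold changes of the 3 guides were -1.30 (SE 1.79) for snR41, -1.25 (SE 1.33) for snR78 and 3.44 (SE 1.66) for snR87.

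Of the 18 guides, 3 were lower in the high fraction in every sort replicate under repression, as were 27.7% of all guides tested. Beside tR(UCU)G2 these were tD(GUC)J1, an aspartate tRNA gene, and tK(CUU)K, a lysine tRNA gene. With the RLE factors, tK(CUU)K was lower in 3 of 4 sort replicates, and tR(UCU)G2 and tD(GUC)J1 in 4 of 4. The tD(GUC)J1 guide had 79.8, 0.314, 63 and 0 CPM in the high libraries and 96.1, 89.0, 74.2 and 53.8 CPM in the low libraries. The tK(CUU)K guide had 76.2, 75.6, 102 and 0.744 CPM in the high libraries and 124, 93.1, 133 and 189 CPM in the low libraries. Both groups overlapped, and the log2 fold changes of -0.82 (SE 1.45) and -0.62 (SE 1.01) were not called. The guide of tQ(UUG)E2, a glutamine tRNA gene, had 104, 75.3, 247 and 1.12 CPM in the high libraries and 109.8, 61.4, 80.5 and 165 CPM in the low libraries.

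SCR1 and snR6 showed no call in either direction under repression. The SCR1 guide had 188, 349.6, 187 and 0.744 CPM in the high libraries and 238, 250.4, 256 and 172 CPM in the low libraries (log2 fold change 0.02, SE 1.00). The snR6 guide had 486, 341, 309 and 139.8 CPM in the high libraries and 361, 339, 397 and 320.1 CPM in the low libraries (log2 fold change 2.53, SE 1.57). For snR6 the high fraction was the higher one by share of reads in 2 of 4 sort replicates, and in 3 of 4 once the RLE factors were applied.

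In the main activation screens most of these guides had too few reads to be tested. Of the 15 guides that the early list holds, 5 passed the filter on low counts, 3 were called enriched and 0 depleted. The filter asks for a minimum of reads in as many libraries as a fraction holds. A guide near 0 in every high library thus passed only with enough reads in every low library. For example, snR63 guide B and snR81 guide B did not pass and were not tested. The 0 depleted guides therefore do not show that depletion was absent. DESeq2, run on the same 5 guides, also called 0 depleted. None of the 5 had a negative fold change at an unadjusted p under 0.05 in edgeR's likelihood ratio test. The background is wide, since 69.5% of the 1166 guides tested were called enriched and 3.34% depleted, with a median log2 fold change of 4.68 over all of them. With scaling by library size alone, 22 guides were enriched and 276 depleted instead of 810 and 39, and none of the 15 was enriched. The 3 called guides were those of snR63 (guide A), snR66 and snR8. The snR8 guide passed the filter only with the high library of round 5 replicate 2, in which it was high.

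snR63 guide A, paired with a box C/D snoRNA that methylates the large ribosomal subunit, was the most abundant of the 18 guides in the main activation screens. It took 34.5% of the reads of the high library of round 4 replicate 2 (621554 reads, 95% interval 34.4% to 34.5%) and 28.8% of the low library of round 2 replicate 2 (14539 reads, 28.4% to 29.2%), and ranked 1 of all guides in both. Its abundance ranged from 106 to 344626 CPM in the 8 high libraries, with a median of 2116, and from 1737 to 288283 CPM in the 8 low libraries, with a median of 10983. By share of reads, 7 of 8 sort replicates had less of it in the high fraction, the exception being round 4 replicate 2, and the groups overlapped.

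With the RLE factors, 6 of 8 sort replicates had more snR63 guide A in the high fraction. Its fitted log2 fold change was 4.82 (SE 1.80, FDR = 0.0125 in edgeR's likelihood ratio test), close to the median of all guides tested. It was not called without round 4 replicate 2 (0.40), without round 5 replicate 2 (3.79), with scaling by library size alone (-0.25) or with the round and replicate number as a block (2.30). Under repression the guide was at 76.5, 34.5, 392 and 77.3 CPM in the high libraries and at 251, 130.5, 144 and 261 CPM in the low libraries, and 3 of 4 sort replicates had less of it in the high fraction.

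snR63 guide B had few reads in the high libraries of the main activation screens. It had 0 to 1.14 CPM in the 8 high libraries, with a median of 0.658, and 1.34 to 618 CPM in the 8 low libraries, with a median of 23.5. Every high library was below every low library by share of reads, as for 10.1% of the guides with reads in all 8 sort replicates. With the RLE factors the direction was split, with 4 sort replicates higher and 4 lower in the high fraction, and the guide did not pass the filter. Under repression it had 0.299, 138, 71.1 and 0 CPM in the high libraries and 66.1, 46.7, 86.7 and 90.6 CPM in the low libraries. The guides A and B of snR63 have the same target and are not independent of each other.

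The snR66 guide ranged from 0.420 to 2138 CPM in the high activation libraries, with a median of 13.9, and from 0 to 454 CPM in the low libraries, with a median of 57.6. Its fitted log2 fold change was 6.14 (SE 1.78, FDR = 0.00196 in edgeR's likelihood ratio test). It was 2.28 without round 5 replicate 2, 0.76 with library size alone and 2.66 with the round and replicate number as a block, and was not called in any of these. By share of reads, 3 of 8 sort replicates were higher in the high fraction, and with the RLE factors 6 of 8 were, and round 5 replicate 2 held most of its reads in the high fraction. The snR8 guide ranged from 0 to 854 CPM in the high libraries, with a median of 0, and from 1.34 to 279 CPM in the low libraries, with a median of 41.1. It had 1795 reads in the high library of round 5 replicate 2 and at most 5 in each of the other 7 high libraries, and its fitted log2 fold change was 6.23 (SE 1.75, FDR = 0.00155 in edgeR's likelihood ratio test). For snR8, library size alone gave 0.64 and the block -0.56. Without round 5 replicate 2 snR8 did not pass the filter and none of the 15 guides was called enriched.

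The tested guides of snR33 and snR11 were not called. The snR33 guide ranged from 0.420 to 150.3 CPM in the high activation libraries, with a median of 2.45, and from 38.7 to 805 CPM in the low libraries, with a median of 71.2. By share of reads, 7 of 8 sort replicates were lower in the high fraction, and the fitted log2 fold change was 2.29 (SE 1.30, FDR = 0.0937 in edgeR's likelihood ratio test). The snR11 guide ranged from 0 to 9.71 CPM in the high libraries, with a median of 0.930, and from 8.41 to 384 CPM in the low libraries, with a median of 96.8. All 8 sort replicates were lower in the high fraction by share of reads. Its log2 fold change was -1.64 (SE 1.02, FDR = 0.122 by the likelihood ratio test of edgeR) with the RLE factors, and -6.21 and called depleted with library size alone.

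Among the 9 guides of the set with reads in every sort replicate of the main activation screens, those of snR11, snR63 guide B and snR81 guide B were lower in the high fraction in 8 of 8 by share of reads, as were 24.0% of all guides with reads in every sort replicate. snR81 guide B had 0 to 2.04 CPM in the high libraries, with a median of 0, and 0.406 to 395 CPM in the low libraries, with a median of 12.3. The SCR1 guide had 2645 reads in the high library of round 2 replicate 1 and 0 to 3 reads in each of the other 7 high libraries, with 0 to 95 reads in the low libraries. The snR87 guide likewise had 3725 reads in the high library of round 3 replicate 2 and 0 to 4 reads in the others, with 0 to 343 reads in the low libraries. In both, a single high library therefore set the level of the high fraction. The snR6 guide had 0 to 6 reads in the high libraries and 0 to 280 in the low libraries, and the tD(GUC)J1 guide 0 to 2 reads in the high libraries and 0 to 489 in the low libraries.

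The guides of snR3, snR81 (guide A) and tK(CUU)K were in the main list only. The rows of that list at hand are those with the smallest p of this contrast, so their activation values chose them and are given as a description. The snR3 guide reached 6807 CPM in the high library of round 4 replicate 1, with a median of 7.94 CPM over the 8 high libraries and of 3.25 CPM over the 8 low libraries. The tK(CUU)K guide reached 4975 CPM in the same high library, with medians of 5.33 CPM in the high and 4.51 CPM in the low libraries. In the high fraction, the reads of both guides thus came mainly from round 4 replicate 1. The low reads of snR3 came mainly from the same sort replicate and those of tK(CUU)K from round 2 replicate 1. snR81 guide A was at 2.63 to 2024 CPM in the high libraries, with a median of 17.5, and at 2.00 to 813 CPM in the low libraries, with a median of 96.8. Its reads in the high fraction came mainly from both replicates of round 4, with 3806 and 3651 reads, and its log2 fold change was 7.34. This value was 1.45 without round 4, 0.92 with library size alone, 1.80 with DESeq2 and 4.03 with the round and replicate number as a block, and by share of reads 4 sort replicates were higher and 4 lower in the high fraction.

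The early activation screen supplied the list that holds 15 of the guides, and the rows of the list are ordered by this contrast, so its values are also a description. All 15 were tested there and their log2 fold changes ranged from -9.44 to 14.60 with a median of 2.13, beside a median of 0.11 over all guides tested. At log2 fold changes beyond 8 and an FDR under 0.1, snR63 guide A was enriched and the guides of snR78 and tR(UCU)G2 were depleted, against 1.21% enriched and 21.2% depleted of the 3215 guides tested. snR63 guide A had 1219 and 171 reads in the high libraries and 1 and 0 reads in the low libraries. The snR78 guide had 0 and 0 reads in the high libraries and 348 and 27 reads in the low libraries. Its share of reads was at least 140-fold lower in the high fraction, a limit of 12.6-fold without replicate 1.

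The remaining guides of the early screen often differed between the replicates. The SCR1 guide had 1897 and 417 reads in the high libraries and 78 and 34 reads in the low libraries, so that it was higher in the high fraction in both replicates. In contrast, the guides of snR11 (0 and 1174 reads), snR41 (1 and 841), snR63 guide B (0 and 1908), snR87 (0 and 1190) and snR6 (1 and 1459) had almost all reads of the high fraction in replicate 2. The snR33 guide had 3980 and 6 reads in the high libraries and 1252 and 698 reads in the low libraries. The guides of tD(GUC)J1 and tQ(UUG)E2 had at most 1 read in a high library, with 858 and 261 reads for tD(GUC)J1 and 413 and 56 reads for tQ(UUG)E2 in the low libraries. snR81 guide B had 0 and 2 reads in the high libraries and 549 and 1228 reads in the low libraries.

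The proteins that work with these RNAs were looked at through the guides that the same lists pair with them. Of 61 genes, 15 had a guide, 17 guides in all, and none of these genes encodes a core protein of the box C/D or H/ACA particles. Under repression 15 of the 17 guides were tested and 4 were called depleted (edgeR's likelihood ratio test, FDR under 0.05), beside the 13.5% of all guides tested. The other 11 were not called, with log2 fold changes of -3.04 to 2.35, and the median of the 15 was -0.63. The depleted guides were those of SRP21, a protein of the signal recognition particle, with a log2 fold change of -6.73, of RVB2, a helicase that helps to assemble box C/D particles, at -8.48, and both guides of TFC3, a subunit of the factor TFIIIC that binds tRNA genes, at -8.93 and -6.82. The SRP21 guide was at 0 to 0.299 CPM in the high libraries and 4.06 to 38.7 CPM in the low libraries. The SCR1 guide, the RNA of the same particle, was not called. Of 8 genes of this particle and its receptor, only 1 had a guide here, because partners were taken through the activation lists. The paper, by contrast, names parts of this particle among the components enriched under repression. The SRP21 guide alone therefore does not give the direction of the particle as a whole. None of the 17 guides passed the filter of the main activation screens.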

How the data were processed

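The authors sequenced the guide region in 28 libraries, mapped the reads to the guides with BWA, and deposited raw counts of reads per guide, not normalized. Value columns that were not used numbered 0. The labels name the sacCer3 build, and versions of the authors' tools are not given in the sources used here. The deposited counts were tested in R 4.3.3 with edgeR 4.0.16, in a fit of its own for each of the early activation, main activation and main repression libraries, with filterByExpr, RLE factors, glmFit and glmLRT, 0.125 as prior count, and Benjamini-Hochberg adjustment over all guides tested, with all libraries of a fraction as replicates. RLE, glmFit, glmLRT, the adjustment and the replicates follow the study's methods. The filter and the prior count are edgeR's defaults, chosen here because those methods name neither, and another filter leaves another set of guides in the fit. Here 1166 guides were tested in the main activation and 13403 in the repression screens, with 810 and 720 enriched. At the same thresholds the paper reports more guides kept and fewer enriched in both. The calls and background shares given here are therefore not those of the study. The SE of a log2 fold change was obtained by dividing its absolute value by the root of the test's likelihood ratio. Pairing by sort replicate was checked through the correlation of the deviations of the high and low library from their fraction means.

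Genes and guide sequences come from the guide lists of the study (1995 rows of the early and 461 rows of the main list at hand). Every guide of the set is named, whatever its values. The set and the lists of protein partners were chosen with earlier results of these data known. Directions per sort replicate use shares of reads, without RLE factors unless stated. Absence was bounded with 3 reads over the libraries of a fraction, a limit on the share of reads and not on the number of cells. Alternatives were TMM, library size alone, no filter, a filter that asks for CPM above 1 in the number of libraries of a fraction, glmQLFTest, DESeq2 1.42.0, a prior count of 2, a replicate block, summed replicates, and fits without each sort replicate or round. Coordinates are those of the R64 gene table. Binding positions of guides were not analysed here.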

Additional observations from a re-analysis of the deposited data

Results flagged for a closer look

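In 26 of 70 groups of 4 or 8 libraries, the CPM of a guide had 1 library far from all others. Its gap to the nearest library was above the 95% limit of Dixon's test. In the main activation screens this held for 11 guides in high and 10 in low libraries. Under repression it held for 4 guides in high libraries and 1 in low libraries. Chance flags about 5% of groups only where values are normally distributed. CPM values were often strongly skewed, as for snR3 in the high libraries of the main activation screens (median 7.94, highest 6807 CPM). The share of flagged groups over all guides is not given here. The 26 groups are therefore a description and cannot be read as an excess over chance.

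In the high fraction of the main activation screens the library far above the others was round 4 replicate 1 for snR3 (6807 CPM) and tK(CUU)K (4975 CPM), and round 4 replicate 2 for snR63 guide A (344626 CPM). It was round 5 replicate 2 for snR66 (2138 CPM) and snR8 (854 CPM), and round 3 replicate 2 for snR87 (3266 CPM). Round 2 replicate 1 stood apart for SCR1 (2700 CPM) and round 2 replicate 2 for snR41 (286 CPM) and tQ(UUG)E2 (151 CPM). For snR78 (2.27 CPM, round 3 replicate 1) and snR81 guide B (2.04 CPM, round 2 replicate 1) the library rests on 2 reads.

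In the low fraction of these screens it was round 2 replicate 1 for snR11 (384 CPM), snR33 (805 CPM) and tK(CUU)K (596 CPM), and round 2 replicate 2 for snR63 guide A (288283 CPM). Round 4 replicate 1 stood apart for snR3 (231 CPM) and snR6 (192 CPM), and round 5 replicate 2 for snR8 (279 CPM) and snR81 guide A (813 CPM). Round 3 replicate 1 did so for snR81 guide B (395 CPM) and round 3 replicate 2 for snR41 (590.4 CPM).

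In the high fraction of the repression screens, round 2 replicate 2 stood apart for snR3 (1295 CPM) and snR66 (1036 CPM), round 1 replicate 2 for snR41 (77.8 CPM) and round 2 replicate 1 for snR63 guide A (392 CPM). In the low fraction, round 1 replicate 1 did so for snR81 guide A (147 CPM).

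By share of reads, the snR66 guide was higher in the high fraction in every sort replicate under repression and lower in both of the early activation screen. The median log2 ratio of high over low CPM was 0.24 under repression and -4.61 in the early screen. With the RLE factors, 1 of the 2 early sort replicates was higher in the high fraction. The fitted log2 fold change was 1.91 (SE 3.30) in the early screen and 5.56 (SE 2.10) under repression. The signs thus differed by share of reads only, and the difference was not tested.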

How the results depend on the processing

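The depletion of the tR(UCU)G2 guide under repression kept its direction and its call in all 15 alternatives, with log2 fold changes of -10.03 to -5.14 and FDR values of 0.000131 to 0.0419 (edgeR or DESeq2, Benjamini-Hochberg), and it was the depleted guide of the set in each. The count of 4 enriched guides under repression was 0 with TMM, library size alone, glmQLFTest, the replicate block, summed replicates and without round 2. It was 1 without round 1, and ranged from 0 to 2 without a sort replicate. It was also 0 with DESeq2, but DESeq2 gave these 4 guides no adjusted p. Their DESeq2 log2 fold changes were 5.43 to 8.58, and their calls were thus not tested by it. The snR3 guide had a log2 fold change of -1.41 with the replicate block, -1.33 without round 2 and -1.55 to 9.51 without a sort replicate, the lowest being without round 2 replicate 2, and snR11 was at -0.49 without round 2.

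Of the early-list guides, 3 were enriched in the main activation screens. The count was 0 with TMM, library size alone and the replicate block, 1 with DESeq2 and without round 5, 2 without a filter, 5 with the filter of CPM above 1, and 0 to 4 without a sort replicate. Without a filter the enriched guides were those of SCR1 and snR87, and the 3 called otherwise were not, with FDR values in edgeR of 0.140 for snR63 guide A, 0.0644 for snR66 and 0.0609 for snR8. With library size alone 1 guide, that of snR11, was depleted. snR63 guide A was at -0.25 with library size alone and -0.060 without round 4. The snR8 guide was at -0.24 with DESeq2 and -0.56 with the replicate block. In the early screen, 1 guide was enriched and 2 were depleted. There were 0 enriched and 0 depleted without a filter, with the filter of CPM above 1, with glmQLFTest and with the replicate block. DESeq2 gave 2 enriched and 1 depleted guide, and the depleted guides numbered 4 with TMM, 5 with library size alone and 0 with a prior count of 2. Leaving out a replicate there left 1 library against 1 and gave values with no test. The cause of these changes was not tested. Of the 13 guides not called under repression, 7 had the other sign in at least 1 alternative and 0 were called in any.

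The deviations of the high and low library with the same number correlated at -0.014 in the early, -0.039 to 0.127 in the main activation and -0.003 to 0.028 in the repression screens. Only the pair of main activation round 2 replicate 1 passed 0.1. The counts of sort replicates therefore rest on the numbers in the labels. As a hint from the data, 5 of 8 high libraries of the main activation screens, 2 of 4 under repression and 0 of 2 in the early screen correlated best with the low library of their own number. The labels do not say that equal numbers mark 1 sort. Several guides had under 10 reads in most high libraries, and the smallest library held 50433 reads.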
